A study of Scomber scombrus with 32 samples.

Results

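The genes smyd1b, klhl31, mef2aa and asb10 were followed through every library of an RNA sequencing study of Atlantic mackerel (Scomber scombrus) muscle cell lines. They were taken by their gene identifiers (133979211, 133991919, 133981491 and 133990035) and are 4 of the 24189 genes counted. The study used 32 libraries of 2 muscle cell lines, Mack1 and Mack2, labelled as muscle stem cells (1 Mack2 p180 library as satellite cells), and the labels place the p77 and p180 cultures after immortalization and the p27 and p2 cultures before it. Mack1 gave 8 groups of 3 libraries, since p77 and p27 cultures were each taken in lipid loading, serum starvation, serum reduction and proliferation. Mack2 gave 2 groups of 4 libraries, p180 and p2, both in proliferation. Lipid-loaded cells were confluent and received growth medium with 10 μg/mL insulin, 0.5 mM IBMX, 0.25 μM dexamethasone and a lipid mixture at 10 μL/mL. Serum-starved cells were confluent and no longer fed, and serum-reduced cells were confluent and fed medium with 2.5% serum. Proliferating cells had growth medium with 20% serum and FGF2 at 1 ng/mL, the medium of routine culture. Each group stands for 1 line at 1 stage. The labels call the libraries of a group experimental replicates without saying whether they were grown apart, so the p-values given here reflect only how these libraries vary, which may be technical.

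The sarcomere is the contractile unit of striated muscle, and its thick filaments form only when newly made myosin is folded by dedicated chaperones. Smyd1b is a muscle methyltransferase that, in zebrafish, acts with the chaperones Unc45b and Hsp90 in thick filament assembly. Klhl31 is a kelch protein of muscle, a family that includes substrate adaptors of cullin 3 ubiquitin ligases, and its loss disturbs sarcomeres in mice. Mef2aa is a fish copy of MEF2A, one of the MADS-box transcription factors that act with the myogenic factors to switch on muscle genes. Asb10 belongs to the ankyrin repeat and SOCS box proteins, which serve as substrate adaptors of cullin 5 ubiquitin ligases. The role of Asb10 itself in muscle is less settled.

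Total counts were 16.9 to 32.01 M per library. The skeletal muscle marker genes myod1, myog, desma, ckma and cdh15 had counts in every group (5 of 5), whereas the 6 heart markers summed to at most 0.576 CPM and the 4 blood markers to at most 0.523 CPM in any library, with nppa, nppb, tbx5a, spi1b and coro1a at 0 throughout. The 5 satellite cell markers summed to 73.5 to 246 CPM over all libraries, of which pax7a was at 0 in Mack1 p77 lipid loading, serum starvation and serum reduction and myf5 at 0 in Mack1 proliferation at both stages and in Mack2 p180. Fibroblast marker genes (6 of 7 with counts, tcf21 at 0) summed to 5228 or more CPM, counts per 1e6 with TMM-scaled library sizes, in every library. Replicate 1 of Mack1 p77 serum starvation stood apart from its group, with a chi-square per degree of freedom of 84.1 and 80.6 against the other 2 libraries, where all other replicate pairs gave 3.25 to 27.1. Values without this library are given beside the results where a call changed or a value moved most. In bulk RNA, fewer cells of a type and less RNA per cell cannot be told apart.

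All 4 genes were higher in lipid loading, serum starvation and serum reduction than in proliferation, at both Mack1 stages. The smyd1b level in Mack1 p77 was 301, 379 and 333 CPM in lipid loading, 653, 544 and 554 CPM in serum starvation and 1381, 1422 and 1342 CPM in serum reduction, against 7.91, 7.79 and 6.90 CPM in proliferation. No confluent library came near the proliferating ones, and the 3 confluent states did not overlap each other. In Mack1 p27 smyd1b had 115, 102 and 98.3 CPM in lipid loading, 385, 389 and 376 CPM in serum starvation and 810, 984 and 1177 CPM in serum reduction, against 30.0, 33.6 and 29.8 CPM in proliferation. Lipid loading and proliferation were thus closer to each other at p27 than at p77, and serum reduction was highest at both. The fitted log2 fold changes against proliferation (edgeR's quasi-likelihood test, two-sided, Benjamini-Hochberg adjustment over all genes tested) were 5.46 ± 0.13 (SE) in lipid loading, 6.28 ± 0.13 in serum starvation and 7.55 ± 0.14 in serum reduction at p77. At p27 they were 1.74 ± 0.11, 3.65 ± 0.12 and 5.01 ± 0.12 in the same order of states, and the largest adjusted p among these 6 was 2.02e-13.

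**Figure D1:**
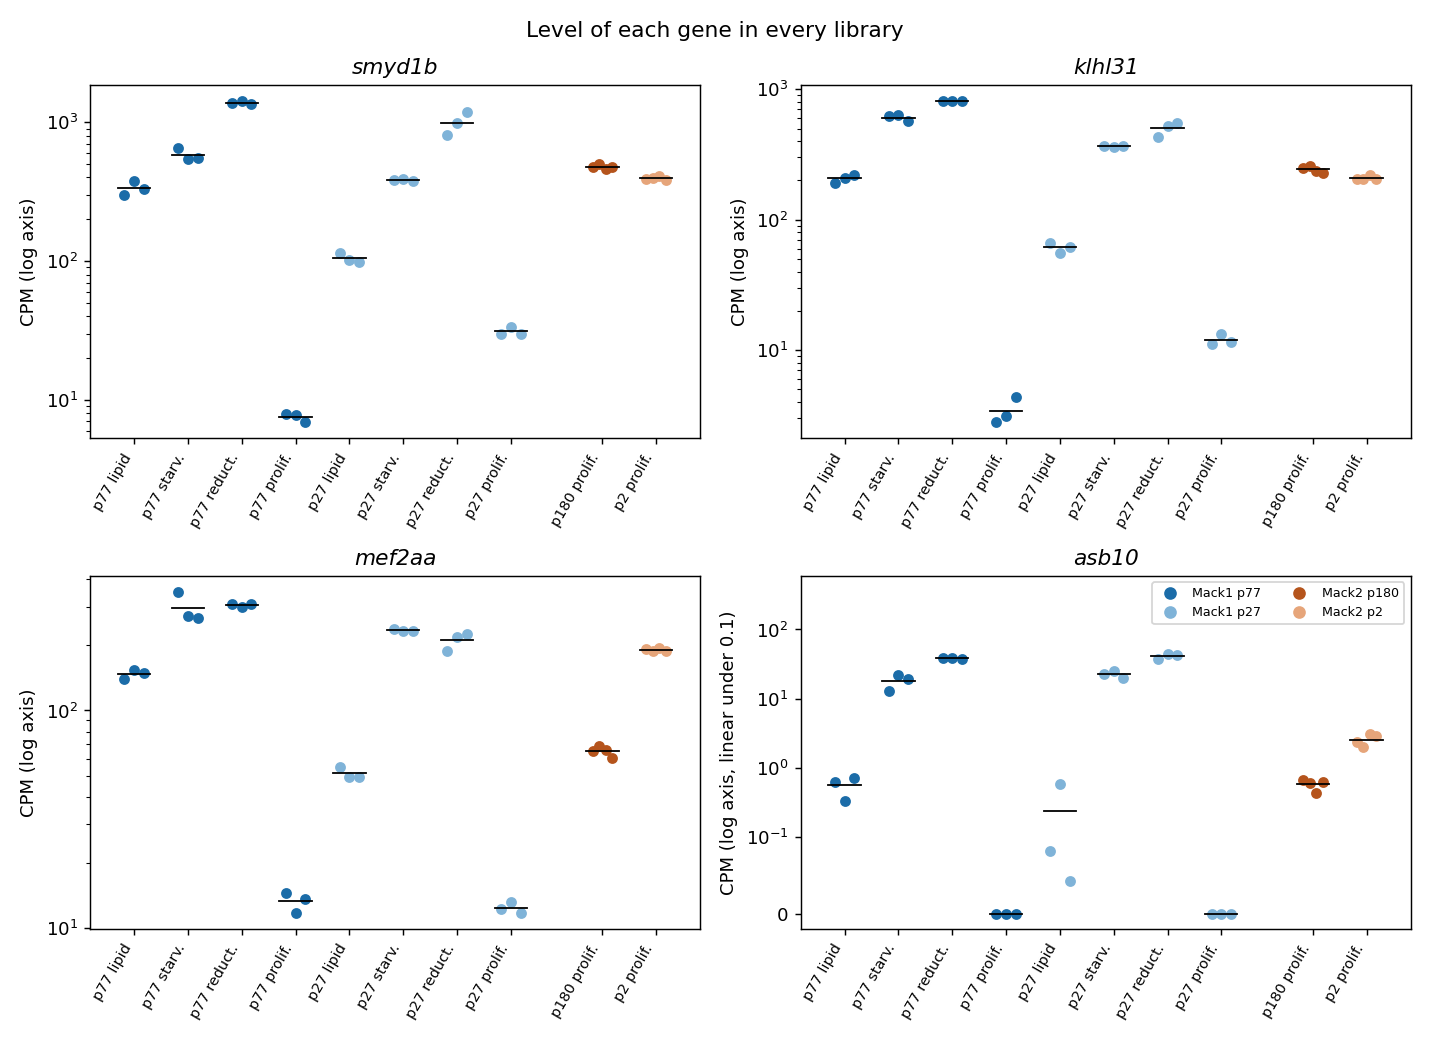
Level of smyd1b, klhl31, mef2aa and asb10 in each library, in CPM on a log axis (linear under 0.1 for asb10), by group. Points are libraries and bars are group means; the confluent Mack1 groups stand above the proliferating ones in every panel, and asb10 is at 0 in all proliferating Mack1 libraries.

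The klhl31 level in Mack1 p77 was 190, 210 and 222 CPM in lipid loading, 619, 630 and 568 CPM in serum starvation and 813, 810 and 810 CPM in serum reduction, against 2.79, 3.10 and 4.36 CPM in proliferation. The same order of states held at p27, where klhl31 had 66.5, 55.5 and 62.0 CPM in lipid loading, 365, 362 and 370 CPM in serum starvation and 433, 528 and 551 CPM in serum reduction, against 11.03, 13.2 and 11.5 CPM in proliferation. None of these groups overlapped its neighbours. The log2 fold change against proliferation was 5.90 ± 0.13, 7.48 ± 0.14 and 7.92 ± 0.14 in p77 lipid loading, serum starvation and serum reduction. It was 2.35 ± 0.11, 4.97 ± 0.12 and 5.42 ± 0.12 in the p27 states, and the largest adjusted p of the 6 was 5.53e-16.

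The mef2aa level in Mack1 p77 was 139, 154 and 148 CPM in lipid loading, 351, 271 and 266 CPM in serum starvation and 309, 299 and 308 CPM in serum reduction, against 14.5, 11.7 and 13.6 CPM in proliferation. Its starvation and reduction groups overlapped at this stage, and the highest library, at 351 CPM, was the one that stood apart. At p27 mef2aa had 55.2, 49.5 and 49.5 CPM in lipid loading, 236, 232 and 232 CPM in serum starvation and 188, 218 and 224 CPM in serum reduction, against 12.3, 13.2 and 11.7 CPM in proliferation. The log2 fold change against proliferation was 3.45 ± 0.10, 4.49 ± 0.11 and 4.56 ± 0.11 in the p77 states and 2.03 ± 0.10, 4.26 ± 0.11 and 4.10 ± 0.11 in the p27 states. All 6 passed, with a largest adjusted p of 1.70e-15.

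The asb10 transcript had 0 counts in all 6 proliferating Mack1 libraries, a count of 0 that allows up to 0.0397 CPM over the p77 group and 0.0432 CPM over the p27 group (3 counts over the group, counting error only). It had 0.619, 0.327 and 0.718 CPM in p77 lipid loading, 12.7, 21.8 and 19.3 CPM in p77 serum starvation and 38.8, 38.9 and 37.0 CPM in p77 serum reduction. At p27 the level was 0.0823, 0.583 and 0.0431 CPM in lipid loading (2, 14 and 1 counts), 22.9, 25.01 and 19.8 CPM in serum starvation and 37.3, 44.7 and 43.2 CPM in serum reduction. Lipid-loaded cells thus held asb10 at a trace, far below both muscle differentiation states. Folds were taken with counts and library sizes pooled over each group and 3 counts set for the proliferating one. On that basis asb10 was at least 14.3-fold, 459-fold and 964-fold higher in p77 lipid loading, serum starvation and serum reduction. In the p27 states it was at least 5.51-fold, 519-fold and 968-fold higher. These limits allow for counting error in the proliferating group alone and take the counts of the other group as exact. The adjusted p of edgeR's quasi-likelihood test was 3.98e-05, 5.36e-14 and 2.36e-15 at p77 and 0.00391, 3.17e-14 and 3.77e-15 at p27. With 0 counts in proliferation, asb10 could only be called higher, and it passed the filter for low counts through confluent libraries alone. The direction of these calls was thus fixed beforehand. The p27 lipid loading call rested on 1 library, since without replicate 2 the adjusted p was 0.0667. That library also held 14 of the counts behind the 5.51-fold value.

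These counts of 4 of 4 genes higher stand against 35.2% of all genes tested that were higher in p77 lipid loading, 35.5% in p77 serum starvation and 36.8% in p77 serum reduction. At p27 the shares higher were 34.3% in lipid loading, 34.3% in serum starvation and 32.4% in serum reduction. Since asb10 had 0 counts in Mack1 proliferation, it could only be called higher. The 4 genes and the gene lists were also chosen with earlier results of these data known. A count of 4 of 4 therefore describes the chosen genes and is not support of its own. The shares lower were 30.6%, 31.5% and 31.9% in the p77 states and 30.4%, 30% and 29.3% in the p27 states, and both sets of shares are the background for the gene list counts given further on. The median log2 fold change over all genes lay between −0.02 and 0.09 in the 20 comparisons made here. The muscle marker genes, which changed in the same direction, summed to 8098 to 9951 CPM in p77 lipid loading, 11460 to 12420 CPM in p77 serum starvation and 19770 to 20540 CPM in p77 serum reduction, against 84.5 to 94.4 CPM in p77 proliferation. At p27 the sums were 2078 to 2522, 8081 to 8564 and 9855 to 13080 CPM in the 3 states, against 141 to 171 CPM in proliferation. Marker genes of dividing cells ran the other way, with sums of 151 to 442 CPM over all confluent Mack1 libraries against 1002 to 1334 CPM over the proliferating ones. The fibroblast markers were also higher in lipid loading (20790 to 28770 CPM over both stages) and serum reduction (20330 to 24380 CPM) than in proliferation (6080 to 7628 CPM). In serum starvation they were above proliferation at p77 (9959 to 13790 CPM against 7279 to 7628 CPM). At p27 they were below it (5228 to 5840 CPM against 6080 to 6569 CPM). The 4 fat cell markers summed to 1154 to 1502 CPM in lipid loading and 243 to 495 CPM in serum starvation and serum reduction. In proliferation they summed to 229 to 242 CPM at p77, close to p77 serum starvation (268 to 301 CPM), and to 17.8 to 25.9 CPM at p27. Of these markers, lpla was the most abundant, at 437 CPM on average over all libraries, followed by pparg at 2.55 CPM, so the sums mostly follow lpla. Whether these sums mark a mixture of cell types, and any part of that in the levels of the 4 genes, was not tested.

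**Figure D2:**
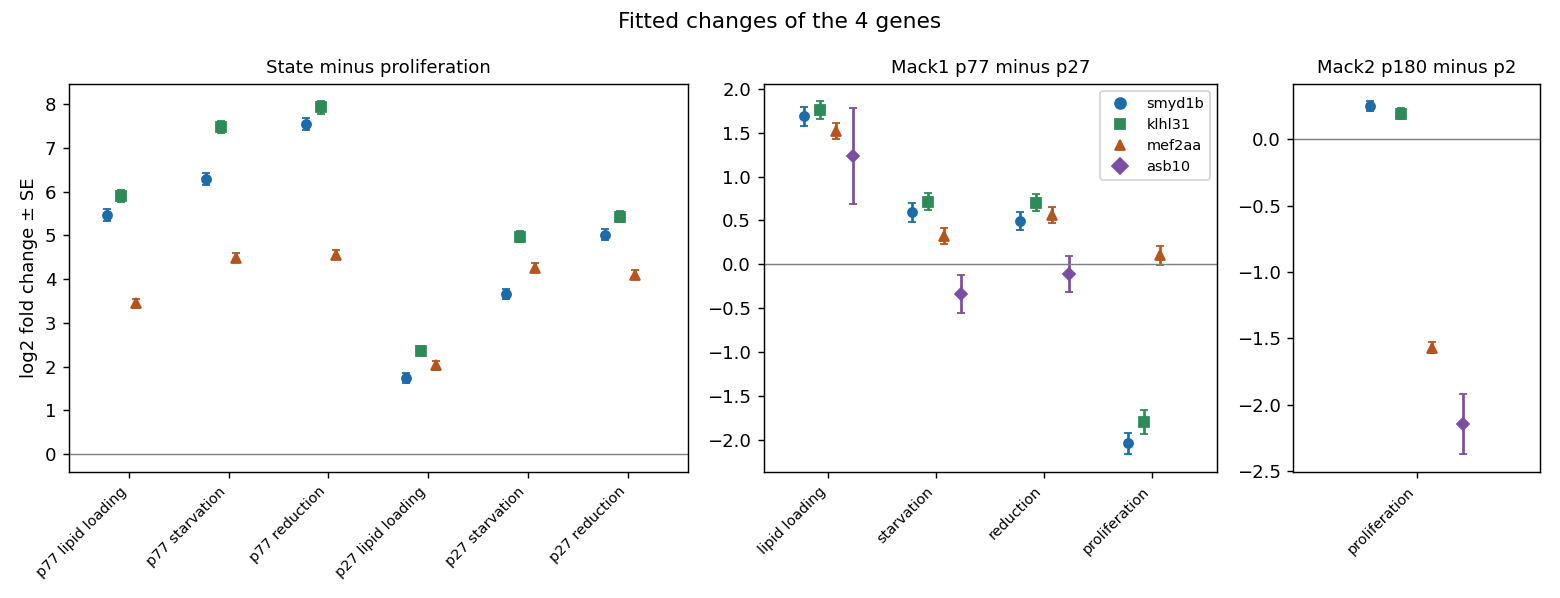
Fitted log2 fold change ± SE of each gene for each Mack1 state minus proliferation, for Mack1 p77 minus p27 within each state, and for Mack2 p180 minus p2 (edgeR). asb10 is left out where a group had 0 counts; in proliferation p77 lies below p27 for smyd1b (−2.04) and klhl31 (−1.80), and mef2aa lies at 0.10.

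Among the confluent states the genes separated. Lipid loading was lowest for all 4 at both stages, and all 16 differences from serum starvation and serum reduction passed the test. Against serum reduction, lipid loading at p77 differed by a log2 fold change of −2.08 ± 0.11 for smyd1b, −2.02 ± 0.10 for klhl31, −1.11 ± 0.09 for mef2aa and −6.12 ± 0.31 for asb10. At p27 the same differences were −3.27 ± 0.11, −3.07 ± 0.11, −2.07 ± 0.10 and −7.46 ± 0.35. asb10 was thus 69.4-fold lower at p77 and 177-fold lower at p27, where smyd1b was 4.24-fold and 9.67-fold lower. The p27 value for asb10 rests on 2, 14 and 1 counts in lipid loading. With 1 library left out its log2 fold change was −9.295 to −6.995, so 177-fold is a rough value. The shares of all genes lower in these comparisons were 28% at p77 and 27.7% at p27. Against serum starvation, lipid loading at p77 differed by −0.82 ± 0.10 for smyd1b, −1.58 ± 0.10 for klhl31, −1.04 ± 0.09 for mef2aa and −5.01 ± 0.31 for asb10, and 25.7% of all genes were lower. The p27 values were −1.92 ± 0.11, −2.62 ± 0.11, −2.23 ± 0.10 and −6.59 ± 0.36, and 31.1% of all genes were lower. For asb10 this p27 value was −8.418 to −6.118 with 1 library left out.

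Serum starvation and serum reduction, the pair of muscle differentiation treatments, gave different levels for 3 of the 4 genes. At p77, starvation minus reduction was −1.26 ± 0.10 for smyd1b (adjusted p = 5.62e-10), −0.44 ± 0.10 for klhl31 (0.00110) and −1.11 ± 0.22 for asb10 (0.000391), whereas 15.5% of all genes were lower. At p27 it was −1.36 ± 0.10 (6.16e-11), −0.45 ± 0.10 (0.000654) and −0.88 ± 0.21 (0.00223), and 19.9% of all genes were lower. The difference for mef2aa was −0.07 ± 0.09 at p77 (adjusted p = 0.624) and 0.16 ± 0.09 at p27 (0.162), neither past the threshold in edgeR's quasi-likelihood test. Without the p77 starvation library that stood apart the p77 value for mef2aa was −0.20 (adjusted p = 0.0576), while smyd1b, klhl31 and asb10 stayed past the threshold at −1.34, −0.45 and −0.90. In the order of Mack1 levels, smyd1b therefore ran from p77 serum reduction at 1382 ± 39.8 CPM (SD, n = 3) over p27 serum reduction at 990 ± 183 CPM to p77 serum starvation at 584 ± 60.3 CPM and down to p77 proliferation at 7.53 ± 0.552 CPM. Only its p27 serum starvation (383 ± 6.75 CPM) and p77 lipid loading (338 ± 38.9 CPM) groups, neighbours in this order, overlapped in range. For klhl31 the order placed p77 serum starvation (606 ± 33.1 CPM) above p27 serum reduction (504 ± 62.5 CPM), the reverse of smyd1b, and no neighbours overlapped. These orders describe the levels, and p77 serum starvation was not tested against p27 serum reduction for either gene.

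Within a library, the ratio of 2 genes does not depend on depth. For every 100 smyd1b counts there were 104 ± 10.6 klhl31 counts in p77 serum starvation (SD, n = 3), against 58.7 ± 1.69 in p77 serum reduction. At p27 the ratio was 95.4 ± 2.73 in serum starvation and 51.3 ± 3.88 in serum reduction. The mef2aa ratio was 50.5 ± 2.90 in p77 serum starvation against 22.1 ± 1.01 in p77 serum reduction, and 60.9 ± 1.18 in p27 serum starvation against 21.4 ± 2.18 in p27 serum reduction. None of these 4 pairs of groups overlapped, and each gave p = 0.1 in an exact two-sided permutation test, the smallest that 3 against 3 allows (0.1125 adjusted over the 9 ratios tested). The asb10 ratio was 3.15 ± 1.07 in p77 serum starvation against 2.77 ± 0.0397 in p77 serum reduction (exact permutation p = 0.7). The starvation library that stood apart had 1.94, below the reduction libraries (2.73 to 2.81), and the other 2 had 4.01 and 3.49, above them. At p27 the asb10 ratio was 5.88 ± 0.588 in serum starvation against 4.27 ± 0.517 in serum reduction, again with no overlap (exact permutation p = 0.1). In lipid loading there were 0.169 ± 0.0719 asb10 counts per 100 smyd1b counts at p77 and 0.229 ± 0.298 at p27. Proliferating p77 cells carried 177 ± 23.9 mef2aa counts per 100 smyd1b counts, where p27 cells carried 39.9 ± 0.971.

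**Figure D3:**
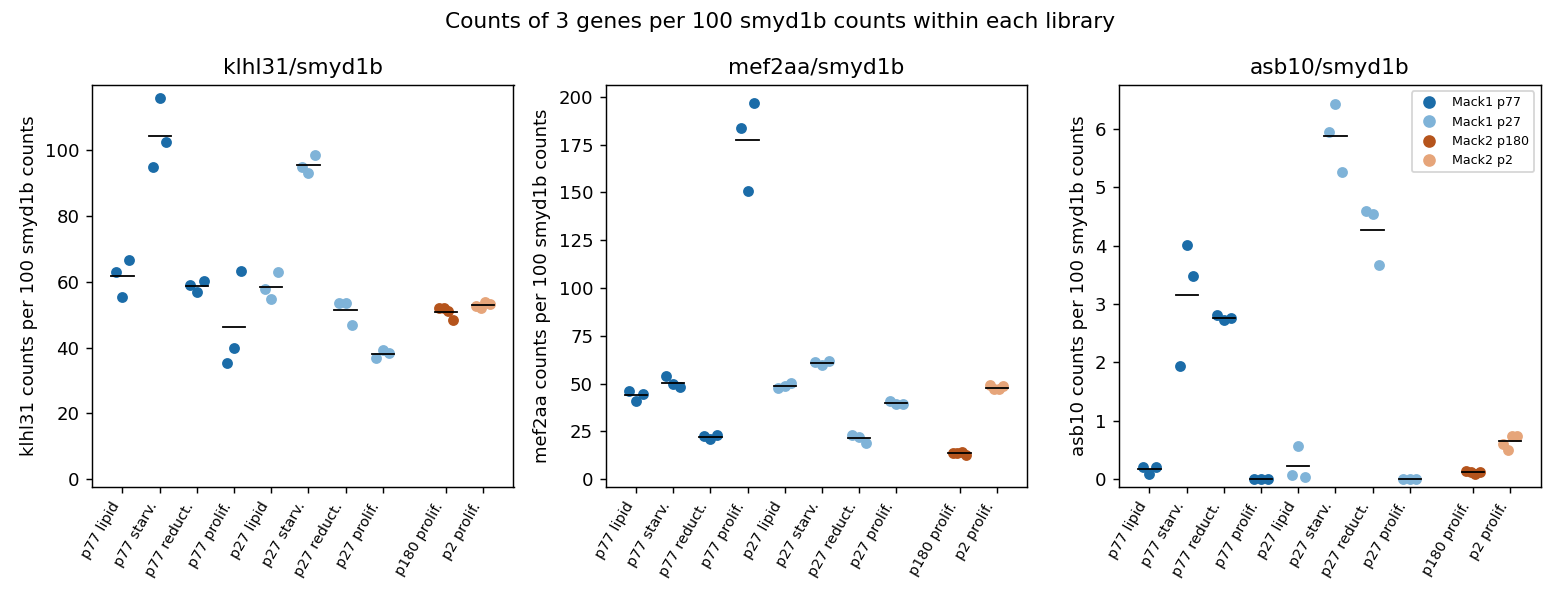
Counts of klhl31, mef2aa and asb10 per 100 smyd1b counts in each library, by group; points are libraries and bars are group means. The klhl31 ratio is highest in serum starvation at both stages, and the mef2aa ratio is highest in p77 proliferation (177) and lowest in Mack2 p180 (13.6).

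Between Mack1 stages, smyd1b and klhl31 were higher at p77 in the 3 confluent states and lower at p77 in proliferation. In lipid loading p77 minus p27 was 1.69 ± 0.11 for smyd1b, 1.76 ± 0.10 for klhl31 and 1.52 ± 0.09 for mef2aa, a 2.87-fold to 3.38-fold rise, where 18.6% of all genes were higher. In serum starvation the 3 genes were higher at p77 by 0.59 ± 0.10, 0.71 ± 0.10 and 0.33 ± 0.09, and in serum reduction by 0.50 ± 0.10, 0.70 ± 0.10 and 0.56 ± 0.09. All 9 passed the test, with adjusted p (edgeR) of 0.0102 or less, and 11.1% and 14.7% of all genes were higher in starvation and reduction. The mef2aa rise in starvation rested on the library that stood apart: without it the value was 0.20 (adjusted p = 0.0800), and it also missed the threshold in a fit of the compared groups alone (adjusted p = 0.131). In proliferation, smyd1b and klhl31 fell by 2.04 ± 0.12 and 1.80 ± 0.13 on the log2 scale at p77 (adjusted p = 6.13e-13 and 4.32e-11), and 15.1% of all genes were lower. The mef2aa level was 13.3 ± 1.43 CPM in p77 proliferation and 12.4 ± 0.742 CPM in p27 proliferation (SD, n = 3 each), a difference of 0.10 ± 0.11 that did not pass (adjusted p = 0.552).

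In the main fit, the asb10 level did not differ past the threshold between stages in any confluent state. In proliferation both stages had 0 counts and no test was made. In serum reduction it averaged 38.2 ± 1.07 CPM at p77 and 41.7 ± 3.94 CPM at p27 (log2 fold change −0.11 ± 0.21, adjusted p = 0.745). In serum starvation it averaged 17.9 ± 4.72 CPM at p77 and 22.6 ± 2.64 CPM at p27 (−0.34 ± 0.22, adjusted p = 0.283), and without the p77 library that stood apart the difference was −0.14 (adjusted p = 0.712, edgeR). In lipid loading the averages were 0.555 ± 0.203 CPM at p77 and 0.236 ± 0.301 CPM at p27, and the log2 fold change of 1.24 ± 0.55 missed the threshold in edgeR (adjusted p = 0.0876). This call changed with the setting: DESeq2 gave 1.26 (adjusted p = 0.0160), no low-count filter 1.24 (0.0409) and the fit without p27 replicate 2, which held 14 of the counts, 3.07 (0.00135).

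The difference of the differences was tested directly. The log2 change from proliferation to lipid loading was larger at p77 than at p27 by 3.73 ± 0.16 for smyd1b, 3.55 ± 0.17 for klhl31 and 1.42 ± 0.14 for mef2aa. For the change to serum starvation the excess at p77 was 2.63 ± 0.16, 2.51 ± 0.17 and 0.23 ± 0.14, and for the change to serum reduction 2.54 ± 0.16, 2.50 ± 0.17 and 0.46 ± 0.14. All but the mef2aa value for serum starvation (adjusted p = 0.318, edgeR; 0.0962 without the library that stood apart, adjusted p = 0.691) passed, where 13.7%, 8.7% and 11.5% of all genes had a larger change at p77. The mef2aa value for serum reduction (adjusted p = 0.0175) lost its call when any of 3 single libraries was left out (0.0541 to 0.0703). For asb10 the proliferating groups were both at 0 counts and no such difference was computed. A larger change to serum starvation at p77 was shared by many muscle genes. Without the library that stood apart, it was called in 26 of 41 sarcomere structure genes and 4 of 5 muscle markers. A smaller change was called in 0 genes of either list, and 2223 genes passed in either direction in that fit.

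In proliferating Mack2 cells the 4 genes split into pairs. The smyd1b level was 479, 500, 464 and 473 CPM in p180 cells, against 391, 397, 412 and 385 CPM in p2 cells. The klhl31 level was 249, 259, 238 and 229 CPM in p180, against 206, 207, 221 and 205 CPM in p2. Both were thus a little higher in every p180 library than in any p2 library, by a log2 fold change of 0.25 ± 0.03 for smyd1b (1.19-fold, adjusted p = 7.78e-06) and 0.19 ± 0.04 for klhl31 (1.14-fold, adjusted p = 0.000644) in edgeR's quasi-likelihood test. The mef2aa level was 65.1, 69.0, 65.7 and 60.4 CPM in p180, against 192, 187, 194 and 187 CPM in p2. The asb10 level was 0.672, 0.605, 0.435 and 0.614 CPM in p180, against 2.36, 2.01, 3.03 and 2.85 CPM in p2. These 2 genes were lower in every p180 library, by −1.57 ± 0.04 for mef2aa (2.97-fold lower, adjusted p = 2.22e-14) and −2.14 ± 0.23 for asb10 (4.42-fold lower, adjusted p = 3.69e-07).

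Calls were common in this comparison, with 38.6% of all genes higher and 39.1% lower, so 2 genes called in each direction is near what all genes showed. Replicate 4 of p2 carries the batch label of Mack1 while the other Mack2 libraries carry another. Within that other batch, without this library, the log2 fold changes were 0.24 for smyd1b, 0.19 for klhl31, −1.58 for mef2aa and −2.09 for asb10, all past the threshold. Counts per 100 smyd1b counts were 13.6 ± 0.594 for mef2aa in p180 against 48.0 ± 1.07 in p2, and 50.9 ± 1.64 for klhl31 in p180 against 53.0 ± 0.697 in p2 (SD, n = 4 each; exact two-sided permutation p = 0.0286 for both, 0.0857 adjusted over the 9 ratios). The Mack2 and Mack1 levels were not tested against each other, since line and batch nearly coincide. Set side by side, proliferating Mack2 cells had 479 ± 15.2 (p180) and 396 ± 11.7 CPM (p2) of smyd1b. Proliferating Mack1 cells had 7.53 ± 0.552 (p77) and 31.1 ± 2.15 CPM (p27). The dividing cell markers of p2 (286 to 317 CPM) lay in the range of confluent Mack1 libraries (151 to 442 CPM). Those of p180 (1099 to 1118 CPM) lay in the range of proliferating Mack1 libraries (1002 to 1334 CPM). The part of this in the smyd1b levels was not tested.

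Most sarcomere genes fell in the same Mack2 comparison. Of the 41 sarcomere structure genes tested, 33 fell and 5 rose in p180 (39.1% and 38.6% of all genes), with a median log2 fold change of −2.52 against 0.01 over all genes. The skeletal alpha-actin gene acta1b was −9.77 ± 0.45 and the fast myosin light chain gene mylpfb −4.00 ± 0.04, whereas the cardiac-type actin gene actc1b was −0.71 ± 0.04. The 5 that rose, named after their values were seen, were tcap (2.59 ± 0.30), smpx (1.95 ± 0.18), tmod1 (0.59 ± 0.03), acta1a (0.53 ± 0.05) and lmod3 (0.30 ± 0.04). The muscle marker genes summed to 2512 to 2645 CPM in p180 against 5304 to 5849 CPM in p2. Markers of dividing cells summed to 1099 to 1118 CPM in p180 against 286 to 317 CPM in p2. Fibroblast markers were lower in p180 (5509 to 5840 CPM) than in p2 (17490 to 19680 CPM), and so were smooth muscle markers (2916 to 3090 CPM in p180 against 10580 to 11550 CPM in p2). The fibroblast sums mostly follow col1a2, col1a1a and col1a1b (6801, 4635 and 2695 CPM on average over all libraries). The smooth muscle sums mostly follow tagln and acta2 (1980 and 517 CPM). Whether these sums mark other cell types, and any part of that in the values of the 4 genes, was not tested.

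**Figure D4:**
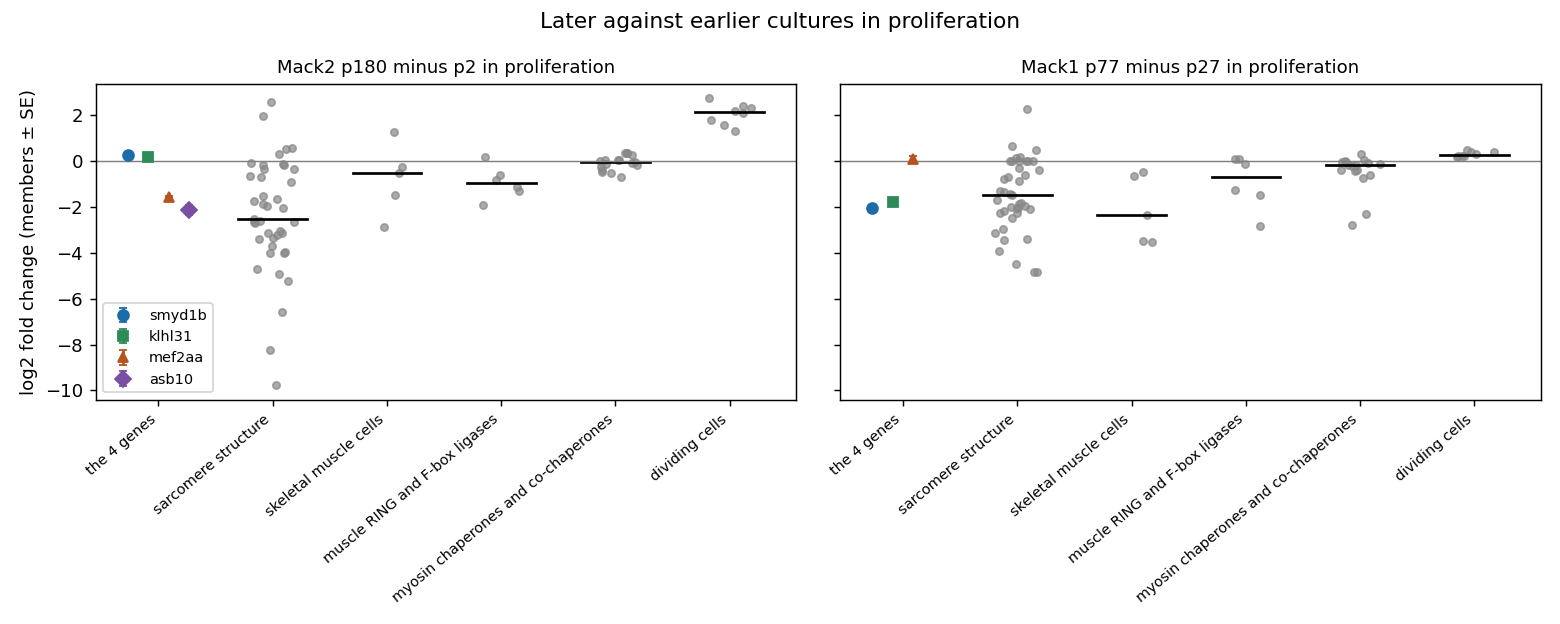
Log2 fold change of the 4 genes (± SE) and of the measured members of 5 gene lists (grey points, median as a bar) for Mack2 p180 minus p2 and for Mack1 p77 minus p27, both in proliferation. In Mack2 smyd1b (0.25) and klhl31 (0.19) lie above 0 while most sarcomere genes lie below it (median −2.52); in Mack1 smyd1b (−2.04) and klhl31 (−1.80) lie below 0, where the sarcomere genes' median is −1.47. Genes at 0 counts in a group are drawn at their bound from 3 counts.

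In the matching Mack1 comparison, p77 minus p27 in proliferation, 23 of the 41 sarcomere genes fell and 2 rose (mybpc2b by 2.28 ± 0.66 and tmod1 by 0.50 ± 0.08, named after their values were seen), where 15.1% of all genes were lower and 10.5% higher, with a median of −1.47 when genes at 0 counts were set to their bound. There smyd1b and klhl31 changed in the direction of most sarcomere genes and mef2aa did not pass, whereas in Mack2 mef2aa fell and smyd1b and klhl31 rose. Markers of dividing cells summed to 1261 to 1334 CPM in p77 proliferation against 1002 to 1141 CPM in p27 proliferation.

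The families of the 4 genes gave context for each. Members were matched by gene symbol, which 14498 of the 24189 genes had, so copies without a symbol may be missing. Of the names listed, 6 of 7 SMYD, 4 of 6 MEF2, 9 of 12 muscle kelch and 15 of 26 ASB names were matched. Among the 6 SMYD methyltransferases tested in Mack1, 4 rose against proliferation in each of the 6 states and stages, namely smyd1a, smyd1b, smyd2a and smyd4, and 1, 0 and 0 fell at p77 and 2, 1 and 2 at p27. The closest relative, smyd1a, averaged 55.4, 137 and 166 CPM in p77 lipid loading, serum starvation and serum reduction, against 0.0765 CPM in p77 proliferation. Its log2 fold change in p77 lipid loading was 9.34 ± 0.31, beside 5.46 ± 0.13 for smyd1b. smyd1a and smyd1b are duplicates, and since the handling of reads shared between similar genes is not given, the split between them is uncertain. In Mack2 they parted, with smyd1a at 17.7 CPM in p180 against 79.0 CPM in p2 (−2.17 ± 0.05) while smyd1b rose. smyd2a changed by 2.06 to 4.09 over the 6 comparisons with proliferation, and smyd3, a methyltransferase not limited to muscle, by −0.48 to 0.04. smyd5 fell to 25.9 CPM in p77 lipid loading against 52.1 CPM in p77 proliferation (−1.03 ± 0.10), and by 1.38 ± 0.10, 0.33 ± 0.10 and 0.52 ± 0.10 in p27 lipid loading, serum starvation and serum reduction. It was −0.05 ± 0.10 and 0.17 ± 0.10 in p77 serum starvation and serum reduction, which did not pass. In Mack2 smyd5 rose to 63.2 CPM in p180 against 24.5 CPM in p2 (1.34 ± 0.05).

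The MEF2 family held 3 tested genes, mef2aa, mef2cb and mef2d. mef2cb, the copy of MEF2C, rose in all 6 comparisons with proliferation by 0.37 to 1.77, beside 2.03 to 4.56 for mef2aa. It averaged 141, 306 and 269 CPM in p77 lipid loading, serum starvation and serum reduction, against 90.4 CPM in p77 proliferation. mef2d rose in serum starvation and serum reduction at both stages, fell in p27 lipid loading (−1.14 ± 0.16) and was 0.06 ± 0.15 in p77 lipid loading (adjusted p = 0.748, edgeR). In Mack2 p180 against p2, mef2cb rose by 0.73 ± 0.04 while mef2aa fell, and mef2d was −0.03 ± 0.07 (adjusted p = 0.730, edgeR). mef2b was counted at 0.212 CPM or less on average in every group and was not tested.

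Of 9 muscle kelch genes tested, 7, 8 and 8 rose in p77 lipid loading, serum starvation and serum reduction, and 6, 9 and 8 in the p27 states. Those at 0 counts in proliferation could only be called higher. Without klhl31 the median of the other 8 was 4.02, 4.42 and 5.20 at p77 and 1.83, 3.54 and 3.97 at p27, with genes at 0 counts in proliferation set to their bound. klhl40b, whose human counterpart stabilises thin filament proteins, rose by 5.44 ± 0.17 in p77 serum reduction, and klhl41a averaged 293 CPM there against 0.0400 CPM in p77 proliferation. klhl30 was the 1 kelch gene called lower, in p27 lipid loading (−0.50 ± 0.13). In Mack2 klhl40b and klhl41a rose with klhl31, by 0.30 ± 0.03 and 0.42 ± 0.05, while kbtbd12 and klhl38b fell by 2.01 ± 0.15 and 1.95 ± 0.33 and klhl30 by 0.15 ± 0.07.

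**Figure D5:**
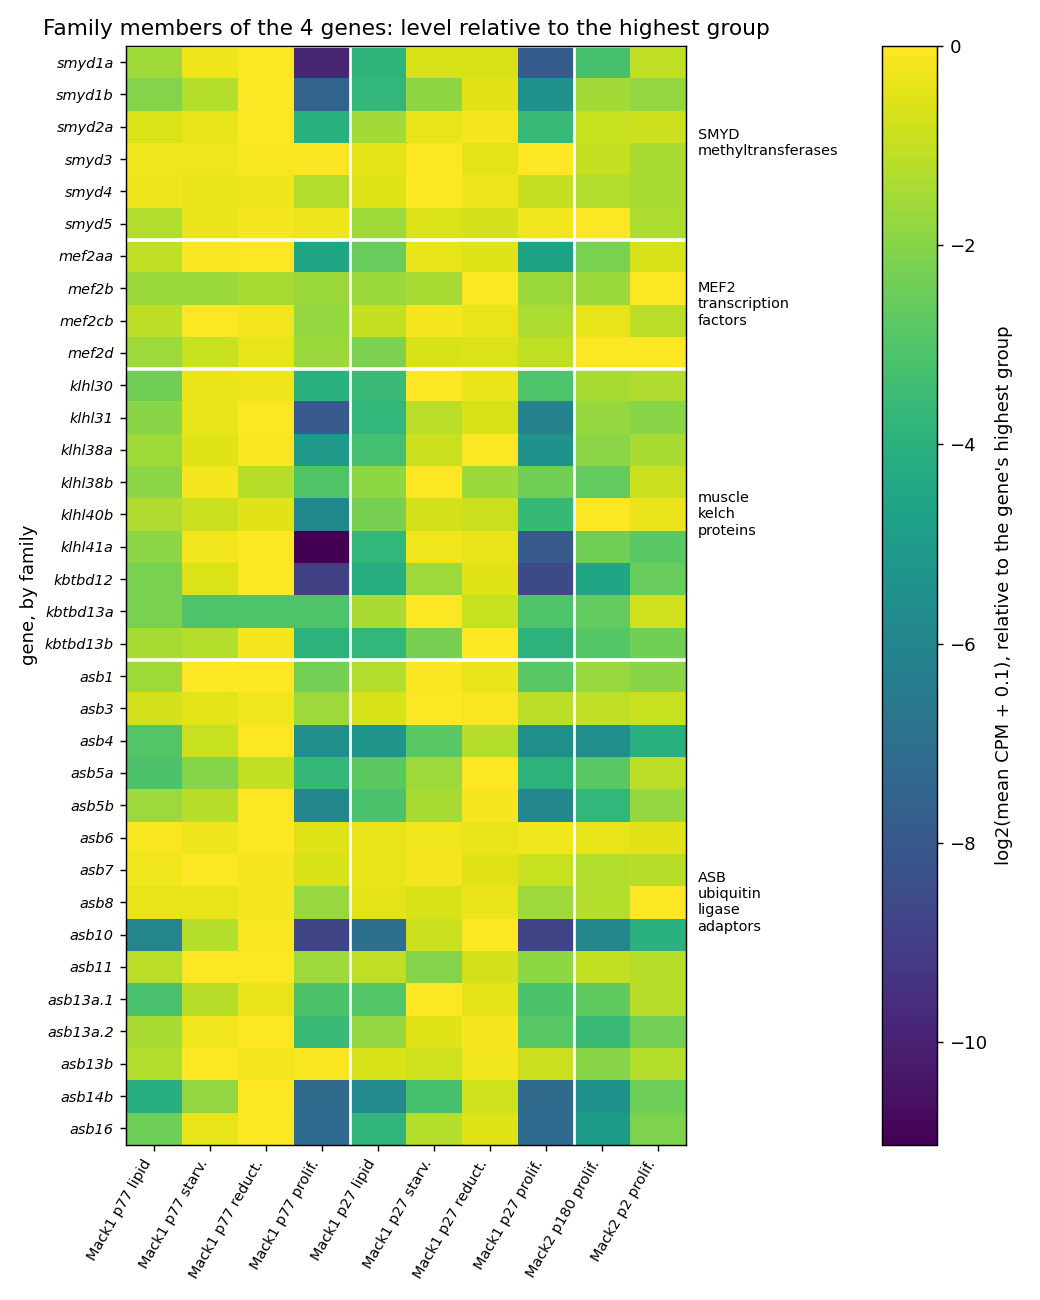
Level of each SMYD, MEF2, muscle kelch and ASB gene matched by symbol, by group, as log2(mean CPM + 0.1) relative to the gene's own highest group. Colours compare groups within a row and not genes. smyd1a and klhl41a are darkest in Mack1 p77 proliferation (0.0765 and 0.0400 CPM), and asb10, asb14b and asb16 are at 0 counts in both proliferating Mack1 groups.

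Of 15 ASB genes tested, 9, 12 and 13 rose in p77 lipid loading, serum starvation and serum reduction, and 8, 12 and 11 in the p27 states; asb13b fell in p77 lipid loading. asb4, asb5b, asb14b and asb16 shared with asb10 a count of 0 in all proliferating Mack1 libraries. Against proliferation these genes could only be called higher, so the direction of their calls was fixed beforehand. asb16 averaged 2.61, 10.95 and 14.3 CPM in p77 lipid loading, serum starvation and serum reduction, where asb10 averaged 0.555, 17.9 and 38.2 CPM. asb14b averaged 0.792 CPM in p77 lipid loading and 14.9 CPM in p77 serum reduction. In Mack2 p180 against p2, 9 of 13 tested ASB genes fell, where 39.1% of all genes did, with a median of −1.31; asb16 was −3.28 ± 0.27, asb14b −3.24 ± 0.29 and asb8 −1.23 ± 0.06. asb8, present in all groups, rose by 0.99 to 1.57 over the 6 Mack1 comparisons with proliferation.

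The core subunits of the ligases that kelch and ASB proteins join were called in both directions, at shares near those of all genes. Of 10 core subunits of cullin ligases tested, 4, 4 and 5 rose and 2, 5 and 4 fell in the p77 states against proliferation, and 3, 4 and 4 rose and 3, 3 and 3 fell at p27. Their medians lay between −0.24 and 0.02. elob, a subunit of cullin 5 ligases, rose by 0.43 to 0.70 over the 6 comparisons, and nedd8, the modifier that activates cullins, fell by 0.32 to 0.58. cand1, which exchanges cullin adaptors, fell in starvation and reduction at both stages and was −0.01 ± 0.11 and −0.06 ± 0.11 in p77 and p27 lipid loading.

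The myosin chaperones were divided. Of 17 tested, 6, 9 and 12 rose and 10, 5 and 5 fell in p77 lipid loading, serum starvation and serum reduction, and 5, 8 and 10 rose and 11, 6 and 5 fell at p27. unc45b, a myosin-specific chaperone, changed by 8.27 ± 0.16, 9.78 ± 0.17 and 10.98 ± 0.17 in the p77 states and by 3.62 ± 0.12, 6.27 ± 0.14 and 7.64 ± 0.15 in the p27 states. hsp90aa1.1, the muscle Hsp90 of zebrafish, changed by 8.50 ± 0.25 to 11.38 ± 0.27 at p77 and by 4.65 ± 0.20 to 8.48 ± 0.24 at p27. hsp90ab1, the general form, fell in all 6 by 0.22 to 0.75. In Mack2 p180 against p2, hsp90aa1.1 rose by 0.27 ± 0.03, close to smyd1b, while unc45b was −0.14 ± 0.03.

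Among 6 muscle RING and F-box ligases, 5, 6 and 6 rose in the p77 states and 5, 5 and 5 in the p27 states, and 1 fell in lipid loading at each stage. trim63b, the MuRF1 gene that marks sarcomere proteins for breakdown, rose by 1.21 to 4.70 over the 6 comparisons, and fbxo32, the atrogin-1 gene, by 2.04 to 4.76. fbxo32 was higher in serum starvation than in serum reduction, at 186 CPM against 113 CPM in p77 (0.70 ± 0.09, adjusted p = 6.55e-07, edgeR) and 184 CPM against 91.2 CPM in p27 (1.03 ± 0.09, 4.66e-10), whereas smyd1b was lower in starvation. Without the p77 library that stood apart, 1 of the 6 ligases was higher in p77 starvation than in reduction and 0 lower. In that fit 4456 genes passed in either direction, where 4685 of 15683 did with all libraries. A count of 1 of 6 is not above what all genes showed. In Mack2 p180 against p2, 5 of the 6 fell, where 39.1% of all genes did. Of 15 MEF2 regulators tested, 7, 10 and 6 rose and 2, 1 and 2 fell in the p77 states, and 7, 9 and 7 rose and 2, 2 and 3 fell in the p27 states. ncor1, a corepressor scaffold, rose in all 6 by 0.30 to 1.02, and mapk14a, a p38 kinase that phosphorylates MEF2, rose in starvation and reduction by 0.49 to 0.71. tead1b, which binds muscle promoters beside MEF2 sites, fell in serum reduction by 0.85 and 1.01 at p77 and p27, and in p27 serum starvation by 0.59.

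Most sarcomere structure genes rose against proliferation, as the 4 genes did. Of 41 tested, 38, 36 and 35 rose in p77 lipid loading, serum starvation and serum reduction and 38, 37 and 37 in the p27 states. Medians, with genes at 0 counts set to their bound, were 7.77, 8.99 and 8.98 at p77 and 5.59, 6.59 and 6.81 at p27. Genes at 0 counts in proliferation could only be called higher. tpm4a, tmod1 and capzb, which also belong to the general actin cytoskeleton, fell in all 6, and mybpc2a or tnnc1a fell in some; these were named after their values were seen. Without the p77 starvation library that stood apart, the count in p77 starvation was again 36 of 41. Without it, 13 of 15 ASB genes, 10 of 17 chaperones and 9 of 15 MEF2 regulators rose there, while 0, 5 and 1 fell. Of 10 cullin subunits, 4 rose and 4 fell. In that fit 10595 genes passed in either direction, where 10498 of 15683 did with all libraries (35.5% higher and 31.5% lower).

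By likeness over the 24 Mack1 libraries (Pearson r of log2 CPM among 10997 genes with a symbol, a description in which the points share states and libraries), the gene most like smyd1b was unc45b (r = 0.9945). ube2d4, obsl1a, klhl31 and slc37a4b followed at 0.9908 to 0.9861. klhl31 was most like lmod3 (0.9942), a thin filament nucleator, and then myot, coq8aa, sptb and slc43a1b (0.9941 to 0.9937). mef2aa was most like esyt2b (0.9941), then reep1, ripor3, obscna and phldb1a (0.9924 to 0.9902). asb10 was most like atp2a2a (0.982), a SERCA calcium pump, then hap1, cavin1a, arl6ip5a and ulk3 (0.9805 to 0.9772). Likeness this high was common: 214 genes exceeded 0.95 with smyd1b, 305 with klhl31, 291 with mef2aa and 56 with asb10. Ranked by Spearman's rho instead, 2, 0, 0 and 1 of the 5 genes stayed among the top 5. The members were themselves alike, from 0.9882 for smyd1b with klhl31 to 0.8882 for smyd1b with asb10.

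In Mack2 the genes most alike in Mack1 were called in both directions. Of the 5 genes most like mef2aa, all 5 fell in p180 against p2, where 39.1% of all genes did and 38.6% rose, by 0.92 (obscna) to 4.29 (ripor3), as did mef2aa. Of those most like klhl31, lmod3 (0.30 ± 0.04), coq8aa (0.41 ± 0.05) and slc43a1b (1.14 ± 0.06) rose with it, while myot (−2.84 ± 0.08) and sptb (−2.50 ± 0.08) fell. Of those most like smyd1b, obsl1a (0.76 ± 0.06) and klhl31 rose while unc45b, ube2d4 and slc37a4b fell. Of those most like asb10, hap1, arl6ip5a and ulk3 fell with it, cavin1a rose by 0.70 ± 0.03 and atp2a2a was 0.04 ± 0.04 (adjusted p = 0.450, edgeR).

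All 4 are protein-coding genes in RefSeq's table for the assembly fScoSco1.1, with 1 listed transcript for smyd1b, 2 for klhl31, 6 for mef2aa and 1 for asb10. None overlaps another listed gene, which matters because the libraries were not strand-specific. smyd1b lies between sprb and LOC133979312, klhl31 between eloal and gclc, mef2aa between ttc23 and mctp2a, and asb10 between asic1c and gbx1. Among the neighbours, asic1c and gbx1 averaged at most 0.0615 and 0.329 CPM in any group, where asb10 reached 41.7 CPM. gclc, a glutathione synthesis gene beside klhl31, averaged 446 CPM in p77 serum reduction against 321 CPM in p77 proliferation. It was below proliferation in p77 lipid loading (206 CPM) and p77 serum starvation (261 CPM). At p27 it averaged 120, 280 and 500 CPM in lipid loading, serum starvation and serum reduction, against 284 CPM in proliferation.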

How the data were processed

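Poly(A) RNA of 32 libraries was sequenced as 150 nt pairs without strand information, per the labels' protocols. The authors deposited raw counts per gene, 1 column per library. No source states if these began as estimated counts. Per the submitters' processing notes the tools were STAR, Salmon 1.10.1, DESeq2 and FastQC, with no role for each. Build, annotation and the treatment of reads shared between genes: not given in the sources used here. All 24189 gene identifiers matched the RefSeq table of fScoSco1.1, which named 14498 and is used for names and neighbours; gene sequences were not used here. The deposited normalized table was not used here.

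Tests on the counts used edgeR 4.0.16 (R 4.3.3), with a low-count filter by group (filterByExpr), TMM scaling and quasi-likelihood fits of group means (glmQLFit, glmQLFTest), two-sided, with Benjamini-Hochberg adjustment and a threshold of 0.05. One fit held the 24 Mack1 libraries (15683 genes) and one the 8 Mack2 libraries (13805 genes). They gave 20 comparisons, 19 in Mack1 and 1 in Mack2. Comparisons that share proliferating libraries are not independent. All 4 genes passed both filters, asb10 passing the Mack1 filter through confluent libraries alone. Levels are CPM with TMM factors over all libraries, and likeness used log2 CPM with a prior count of 2. Where a group had 0 counts, a fold is a lower bound from 3 counts over the group, with the other group's counts taken as exact. The 4 genes, the lists and the comparisons were chosen with earlier results of these data known. Genes named are the 4, their families, the 5 most like each, and the 4 most abundant members of the other lists; exceptions are stated. Procedures were tested on simulated counts in which far fewer genes changed than were called here. That test therefore does not cover calling at the shares seen in these data. Alternatives were DESeq2 1.42.0, RLE factors, 2 other low-count filters, the replicate number as a block, the compared groups alone, each library left out and, chosen after seeing the data, list counts without Mack1 p77 serum starvation replicate 1. Plots used Python 3.11.15 and matplotlib 3.10.9.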

Additional observations from a re-analysis of the deposited data

Results flagged for a closer look

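In Mack2 p2 proliferation, replicate 3 had 221 CPM of klhl31 where the other 3 libraries had 205 to 207 CPM. Its gap to the nearest library was 0.9011 of the group's whole range, above Dixon's 95% critical value for 4 samples. Chance flags about 1 in 20 groups.

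The change from proliferation differed between Mack1 stages by edgeR's test of the difference itself. In lipid loading the log2 change was larger at p77 than at p27 by 3.73 for smyd1b, 3.55 for klhl31 and 1.42 for mef2aa. In serum starvation it was larger by 2.63 for smyd1b and 2.51 for klhl31. In serum reduction it was larger by 2.54 for smyd1b, 2.50 for klhl31 and 0.46 for mef2aa. For smyd1b and klhl31 both a lower proliferating level and a higher confluent level at p77 enter these values.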

How the results depend on the processing

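Of 76 values of the 4 genes over the 20 comparisons, 69 passed the threshold. Under the 6 alternatives to the fit, 447 of 450 values kept their direction and side of the threshold, and 512 of 518 did when 1 library was left out. The 3 exceptions under the alternatives were 2 values of asb10 in p77 against p27 lipid loading and 1 of mef2aa in p77 against p27 serum starvation. For asb10 the log2 fold change was 1.24 with no low-count filter and 1.264 with DESeq2, now past the threshold, and 0.7676 to 3.068 with 1 library left out. For mef2aa the value was 0.3334 with the compared groups alone, no longer past it, and 0.1974 to 0.3928 with 1 library left out. The cause was not tested. With 1 library left out, the adjusted p (edgeR) of asb10 in p27 lipid loading against proliferation was 0.001118 to 0.06671, and the mef2aa excess at p77 in the change to serum reduction was 0.3739 to 0.526. With the compared groups alone, fewer libraries enter the fit and 2634 genes passed in p77 serum starvation against serum reduction (4685 with all libraries), 1348 in p77 against p27 serum starvation (3345) and 1369 in the difference of changes to serum starvation (2132).

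Replicate numbers did not pair the libraries: deviations of same-numbered libraries correlated at −0.0736 to 0.0564 in 84 Mack1 pairs and −0.0231 to 0.0141 in 4 Mack2 pairs. With the replicate block, 0 of 76 calls changed, and smyd1b in Mack2 was 0.2515. Depth limits asb10, with 1 to 21 counts per lipid-loaded library.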
